A study of Danio rerio with 12 samples.

Results

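The tissue at the venous pole of adult *nr2f1a*aco mutant zebrafish, labelled sinus venosus (SV), was compared with the bulbus arteriosus (BA) of wild-type (WT) fish across all genes. The libraries were chosen by their tissue and genotype labels alone, and 4 of the 12 libraries of the series enter the comparison: mutant SV replicates 1 and 2 and WT BA replicates 1 and 2. The mutant fish carried the aco allele, in which bases of the untranslated leader of *nr2f1a* are deleted. The labels give the background of both genotypes as AB/TU, whereas the methods of the study give AB/TL for the WT fish. All fish were adults of 6 months to 1.5 years, none was treated, and the tissue of 20 fish was pooled for every library. For the mutant SV the title and the genotype label give aco, whereas the tissue and source labels read WT SV, and the libraries were used as mutant. The other 8 libraries are the WT SV, atrium and ventricle and the mutant ventricle, with 2 each, and the WT SV is given beside the results as a second SV. Nothing in the labels says that the replicates came from separate clutches or days, so p-values measure the spread between pools. Tissue and genotype differ together in this comparison and cannot be told apart. The study describes the adult mutants as having no atrium and an enlarged SV, so that the mutant tissue comes from a remodelled venous pole.

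The BA is the elastic vessel through which the teleost ventricle ejects blood. Its wall consists of smooth muscle in a matrix rich in elastin and proteoglycans, and it expands with each beat and recoils without beating itself. The SV collects venous blood ahead of the atrium, has a thinner wall, and lies beside the pacemaker cells and cardiac nerve cells of the venous pole. Nr2f1a belongs to the COUP-TF family of nuclear receptors, which are known for atrial identity in heart muscle and venous identity in endothelium. The comparison addresses how the enlarged SV of the mutants, whose wall is described as thickened, stood relative to the vessel of the arterial pole.

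The 4 libraries held 28325098 and 31184243 counts in the mutant SV and 33174661 and 34059501 counts in the WT BA, within the range of 28325098 to 60532949 over the series. Values are given as CPM, which are counts scaled for library size. Levels of different genes cannot be compared on this scale, since gene length is not taken into account. Replicates correlated less in the mutant SV (r = 0.916 of log2 CPM across genes) than in the WT BA (r = 0.952), and the fitted factor of unwanted variation was 2.07 in mutant SV replicate 1, against -0.479, -0.308 and 0.109 in the other libraries. Smooth muscle markers were present in both tissues. *acta2* measured 6005 and 8036 CPM in the WT BA and 409 and 3076 CPM in the mutant SV, and *tagln*, another actin-binding marker, measured 1673 and 2316 CPM in the WT BA and 434 and 1897 CPM in the mutant SV. *myh6* measured 4.43 and 4.94 CPM in the WT BA and 39.7 and 5.51 CPM in the mutant SV, and this atrial myosin gene measured 304 and 202 CPM in the WT SV. The ventricular myosin gene *vmhcl* measured 1720.1 and 493 CPM in the WT BA, 408 and 227 CPM in the mutant SV and 10.7 and 5.4 CPM in the WT SV. Over the 26 genes of a cardiomyocyte list the summed level was 4981 and 1362 CPM in the WT BA and 3085 and 947 CPM in the mutant SV, higher in replicate 1 of each. Over 26 inflow and pacemaker factors the summed level was 465 and 365 CPM in the mutant SV, 384 and 250 CPM in the WT BA and 338 and 293 CPM in the WT SV. Some pacemaker markers were near 0 in the mutant SV, where *isl1* measured 0.252 and 0.0722 CPM, *shox2* 0.114 and 0.144 CPM and *hcn4* 0.229 and 0 CPM. In the WT BA *isl1* and *hcn4* were at 0 counts and *shox2* at 0 and 0.026 CPM. In the WT SV *shox2* measured 6.72 and 3.87 CPM and *isl1* 1.6 and 0.419 CPM, while *hcn4* was low there too, at 0.297 and 0.489 CPM. Since the tissues were measured in bulk, fewer cells of a type and less RNA per cell cannot be told apart. The libraries of the series were prepared in several batches of different types, which were not assigned to libraries in the sources used here, so batch and group cannot be told apart.

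Of 19145 genes tested, 1401 (7.32%) were called, which here means an adjusted p below 0.05 in a fit of all 12 libraries. Of these, 669 (3.49% of those tested) were higher and 732 (3.82%) were lower in the mutant SV. The median log2 fold change was 3.76 among the genes that were higher and -2.09 among those that were lower, and -0.02 over all genes tested. In 1375 of the 1401 called genes the libraries of the 2 tissues did not overlap. Over all genes tested, both mutant SV libraries lay above both WT BA libraries in 27.1% and below them in 26.8%. The WT BA was at 3 counts or fewer in both libraries for 176 of the genes higher in the mutant SV, and the mutant SV was that low for 29 of the genes lower there. A fit of the 4 libraries alone, with no factor and 16836 genes tested by edgeR's quasi-likelihood test, called 0 genes, although 3465 had an unadjusted p below 0.05, and DESeq2 with the factor and all 12 libraries called 2572. Leaving out WT BA replicate 1 gave 723 called genes. Leaving out mutant SV replicate 1 gave 445 genes higher (2.21% of those tested) and 215 lower (1.07%), and leaving out mutant SV replicate 2 gave 507 higher (2.49%) and 461 lower (2.27%). In the same fit, 3457 genes (18.1%) were called between the WT SV and the WT BA. Between the mutant and the WT SV, 295 (1.54%) were called. Such counts do not measure how far apart tissues are, since they also depend on the precision of each comparison, which was not tested. Replicates of the mutant SV correlated least (r = 0.9156, against 0.9555 for the WT SV and 0.9523 for the WT BA). The largest factor value, 2.07, was that of mutant SV replicate 1.

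**Figure D1:**
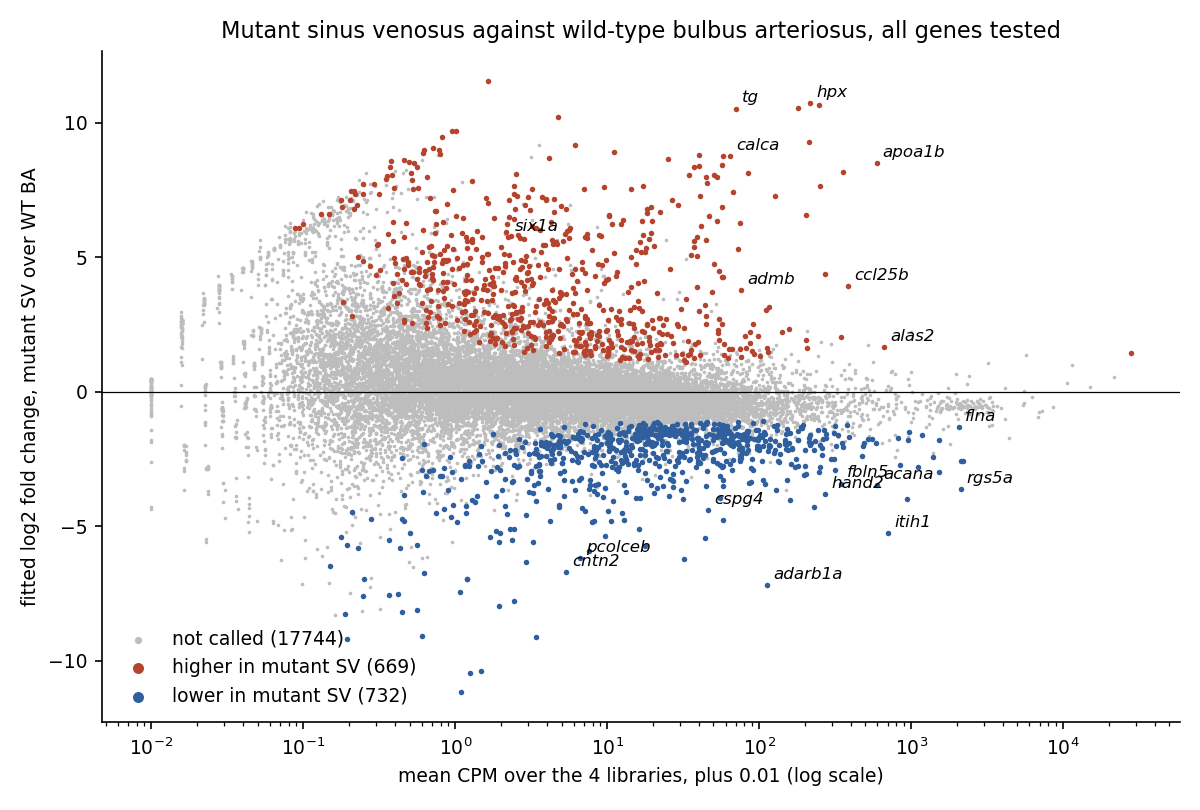
The fitted log2 fold change of the mutant SV over the WT BA (y axis) is plotted against the mean CPM over the 4 libraries (x axis, log scale) for the 19145 genes tested. The 669 genes higher in the mutant SV (red) reach larger fold changes at low levels than the 732 genes lower there (blue), and the labelled genes are described in the text.

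Of the proteoglycan and hyaluronan genes, 5 were lower and 5 were higher in the mutant SV, and those of aggrecan were among the lower. *acana* measured 1118 and 1123 CPM in the WT BA and 69.2 and 72.4 CPM in the mutant SV. This gene encodes aggrecan, the large chondroitin sulfate proteoglycan that binds hyaluronan, and its mean was 15.8 times higher in the WT BA (log2 fold change -3.48, SE 0.68, adjusted p = 0.0121). *itih1* measured 1390.3 and 1327 CPM in the WT BA and 61.5 and 27.5 CPM in the mutant SV. Inter-alpha-trypsin inhibitor heavy chain 1, which is transferred onto hyaluronan, was 30.5 times higher in the WT BA (log2 fold change -5.25, SE 0.57, adjusted p = 0.00136). Neither gene's libraries overlapped between the tissues. Versican b, another hyaluronan-binding proteoglycan, went the same way, with *vcanb* at 135 and 119 CPM in the WT BA and 18.8 and 25.3 CPM in the mutant SV (log2 fold change -2.57, SE 0.39, adjusted p = 0.00417), as did the hyaluronan synthase gene *has3*, at 9.08 and 6.22 CPM in the WT BA and 0.733 and 1.66 CPM in the mutant SV (log2 fold change -2.52, adjusted p = 0.0347). The second aggrecan gene *acanb* had 0 counts in the mutant SV and 0.245 and 0.494 CPM in the WT BA, at least 10.6-fold higher in the WT BA against a floor of 3 counts over the group (adjusted p = 0.0347). Of 45 measured genes of proteoglycans and hyaluronan, 5 were called lower and 5 higher in the mutant SV (22.2% against 7.32% of all genes tested), with a median log2 fold change of 0.14. The proteoglycan and hyaluronan genes called lower numbered 3 without mutant SV replicate 1 or WT BA replicate 1. The genes called higher were *itih2*, *itih3b*, *ncana*, *prg4a* and *dcn*. Of these *dcn*, which encodes the collagen-binding proteoglycan decorin, measured 266 and 372 CPM in the mutant SV and 87.6 and 87.5 CPM in the WT BA (log2 fold change 1.91, SE 0.31, adjusted p = 0.00639). The heavy chain gene *itih2* measured 73.7 and 4.31 CPM in replicates 1 and 2 of the mutant SV and *itih3b* 19.6 and 1.73 CPM, and both were at most 0.208 CPM in the WT BA. Genes of a hepatocyte list were likewise higher in mutant SV replicate 1, with a median log2 ratio of replicate 2 over replicate 1 of -3.85. Whether liver tissue had a part in the values of *itih2* and *itih3b* was not tested. The calls of *acana*, *itih1*, *vcanb*, *dcn*, *itih2*, *itih3b* and *ncana* held with any 1 of the 4 libraries left out. *acana* then had a log2 fold change of -4.11 without mutant SV replicate 1. *itih1* then had a log2 fold change of -4.44 without mutant SV replicate 2. *itih2* then had a log2 fold change of 5.01 without mutant SV replicate 1, 9.06 without mutant SV replicate 2 and 7.41 without WT BA replicate 2. *ncana* then had a log2 fold change of 3.84 without mutant SV replicate 2, 4.18 without WT BA replicate 1 and 6.97 without WT BA replicate 2. *has3* lost its call without mutant SV replicate 1 or WT BA replicate 1 (adjusted p = 0.16 and 0.146). *acanb* and *prg4a* lost their calls without any 1 of the 4 libraries (adjusted p from 0.064 to 0.244, adjusted p from 0.0586 to 0.173).

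Aggrecan and *itih1* also set the mutant SV apart from the WT SV. In the WT SV, *acana* measured 11.9 and 5.75 CPM and *itih1* 0.343 and 0.908 CPM, below both mutant SV libraries. Between the mutant and the WT SV, *itih1* was called higher in the mutant (log2 fold change 5.88, adjusted p = 0.000438), and so were *acana* (log2 fold change 3.49, adjusted p = 0.0214), *fbln5* (log2 fold change 1.64, adjusted p = 0.0331), *wif1* (log2 fold change 2.55, adjusted p = 0.00674) and *fhl3b* (log2 fold change 1.93, adjusted p = 0.0331). For these 5 genes the level of the mutant SV lay between that of the WT SV and that of the WT BA. They were picked for this order from the genes named in the text, after their values were seen, and the mutant SV libraries enter both comparisons. For *vcanb*, *rgs5a*, *mylka*, *spock3* and *hand2* the test between the mutant and the WT SV gave adjusted p-values of 0.57, 0.807, 0.789, 0.526 and 0.345.

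The elastin gene *elnb* and 2 further elastic fibre genes were lower in the mutant SV. *elnb* measured 322 and 299 CPM in the WT BA and 59.7 and 37.7 CPM in the mutant SV, that is 6.38 times higher in the WT BA (log2 fold change -2.77, SE 0.71, adjusted p = 0.038). Elastin b is the elastin of the teleost BA. *fbln5* measured 569 and 666 CPM in the WT BA and 86.8 and 55.1 CPM in the mutant SV, and fibulin 5, which links elastin to the cell surface, was 8.7 times higher in the WT BA (log2 fold change -3.42, SE 0.36, adjusted p = 0.00133). *ltbp3* measured 343 and 336 CPM in the WT BA and 95.4 and 99.8 CPM in the mutant SV (log2 fold change -1.92, adjusted p = 0.0213), and its product holds TGF-beta in the matrix. No library of the mutant SV overlapped with the WT BA in these 3 genes. Against these, *emilin2a*, which encodes an elastin-associated glycoprotein, was higher in the mutant SV, with 43.6 and 65.7 CPM against 6.66 and 5.85 CPM (log2 fold change 3.07, SE 0.52, adjusted p = 0.00734), and *fbln2* was also called higher (log2 fold change 1.69, adjusted p = 0.0269). Of 28 elastic fibre genes tested, 3 were called lower and 2 higher (17.9% against 7.32% of all genes tested, median log2 fold change -0.27). The elastic fibre genes called higher numbered 1 without mutant SV replicate 2 or WT BA replicate 1 or 2, and those called lower numbered 1 without mutant SV replicate 1 or WT BA replicate 1. The calls of *fbln5* and *emilin2a* held with any 1 of the 4 libraries left out. *elnb* and *ltbp3* lost their calls without mutant SV replicate 1 or 2 or WT BA replicate 1 (adjusted p = 0.065, 0.153 and 0.063 for *elnb*, and 0.102, 0.0555 and 0.0533 for *ltbp3*). *fbln2* lost its call without mutant SV replicate 2 or WT BA replicate 1 or 2 (adjusted p = 0.352, 0.0934 and 0.0785).

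Few collagen genes passed the test. Of 43 collagen genes tested, 3 were called higher and 1 lower in the mutant SV (9.3% against 7.32% of all genes tested), with a median log2 fold change of 0.49. The collagen genes called higher numbered 1 without WT BA replicate 2, and those called lower numbered 0 without any 1 of the 4 libraries. The type I collagen gene *col1a1a* measured 618 and 519 CPM in the mutant SV and 265 and 312 CPM in the WT BA (log2 fold change 0.68, adjusted p = 0.301), and *col1a1b* measured 1145 and 1149 CPM in the mutant SV and 658 and 855 CPM in the WT BA (log2 fold change 0.48, adjusted p = 0.37), so that the libraries did not overlap but neither gene passed the test. The type V collagen gene *col5a2a* was lower, at 287 and 219 CPM against 461 and 547 CPM (log2 fold change -1.24, adjusted p = 0.0369), whereas *col6a2* (log2 fold change 1.24, adjusted p = 0.0466) and the basement membrane gene *col18a1a* (log2 fold change 2.37, adjusted p = 0.016) were higher. *col17a1b*, a collagen of epithelial anchoring junctions, had 0 counts in the WT BA and 0.664 and 3.11 CPM in the mutant SV, at least 46.5-fold higher against the floor over the group (adjusted p = 0.00599). The call of *col17a1b* held with any 1 of the 4 libraries left out. *col5a2a* and *col6a2* lost their calls without any 1 of the 4 libraries (adjusted p from 0.0885 to 0.181, adjusted p from 0.0795 to 0.193). *col18a1a* lost its call without WT BA replicate 2 (adjusted p = 0.0541).

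Fibronectin 1b, a matrix protein of wounds and developing vessels, reached 13399 and 5143 CPM in the mutant SV against 1452 and 2672 CPM in the WT BA and 946 and 1063 CPM in the WT SV. Its *fn1b* libraries did not overlap between the mutant SV and the WT BA, but the difference missed the threshold (log2 fold change 1.38, SE 0.38, adjusted p = 0.0536). Between the mutant and the WT SV it was called higher in the mutant (log2 fold change 2.47, adjusted p = 0.0107). *fn1a* did not pass it either, at 222 and 190.0 CPM in the mutant SV and 256 and 349 CPM in the WT BA (adjusted p = 0.159). Among 33 matricellular genes, 2 were called higher and 2 lower (12.1% against 7.32% of all genes tested). Those called higher, *vtnb* and *spon2b*, differed between the mutant SV replicates. In replicates 1 and 2 *vtnb* stood at 30.6 and 0.425 FPKM (fragments per kilobase of transcript, scaled for depth) and *spon2b* at 0.65 and 8.69 FPKM. The matricellular genes called higher numbered 1 without mutant SV replicate 1 or WT BA replicate 1 or 2. *thbs4a*, a thrombospondin of tendon and matrix, had 0 and 1 count in the mutant SV against 2.47 and 2.21 CPM in the WT BA (ratio of the WT BA over the mutant SV 199, 95% counting interval 35.3 to 7916, adjusted p = 0.00523). Among 37 matrix proteases and inhibitors, *adamts15a* was higher (log2 fold change 1.87, adjusted p = 0.0324) and *mmp23ba* (log2 fold change -1.67, adjusted p = 0.0101), *timp2a* (log2 fold change -1.42, adjusted p = 0.0453) and *mmp20b* (log2 fold change -5.19, adjusted p = 0.0463) were lower in the mutant SV (10.8% against 7.32%). The proteases and inhibitors called higher numbered 2 without mutant SV replicate 2 and 0 without WT BA replicate 1 or 2, and those called lower numbered 1 without mutant SV replicate 1 or WT BA replicate 1. The call of *thbs4a* held with any 1 of the 4 libraries left out. *adamts15a* lost its call without mutant SV replicate 2 or WT BA replicate 1 or 2 (adjusted p = 0.178, 0.0908 and 0.0922). *mmp23ba* lost its call without mutant SV replicate 1 (adjusted p = 0.0772). *timp2a* lost its call without mutant SV replicate 1 or WT BA replicate 1 or 2 (adjusted p = 0.217, 0.13 and 0.0613). *mmp20b* lost its call without mutant SV replicate 2 or WT BA replicate 1 (adjusted p = 0.127 and 0.144).

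Of the genes of the smooth muscle contractile apparatus, 13 were lower in the mutant SV, among them genes for the kinase and the light chains that control the myosin motor. *mylka* measured 772 and 843 CPM in the WT BA and 172 and 286 CPM in the mutant SV. Myosin light chain kinase, which starts contraction by phosphorylating the regulatory light chain, was 3.53 times higher in the WT BA (log2 fold change -1.76, SE 0.43, adjusted p = 0.0332). The regulatory light chain gene *myl9a* measured 1294 and 1789.6 CPM in the WT BA and 250.2 and 497 CPM in the mutant SV (log2 fold change -1.81, adjusted p = 0.0105), and the essential light chain gene *myl6* measured 512 and 514 CPM in the WT BA and 97.4 and 156 CPM in the mutant SV (log2 fold change -2.0, adjusted p = 0.00872). In all 3 genes both mutant SV libraries lay below both WT BA libraries. Calponin 1b, an actin-binding inhibitor of the myosin motor, was also lower, with *cnn1b* at 616 and 419 CPM in the WT BA and 44.9 and 111 CPM in the mutant SV (log2 fold change -2.51, adjusted p = 0.0261). *smtna*, which encodes the actin-binding smoothelin, was 10.2 times higher in the WT BA (log2 fold change -3.33, SE 0.73, adjusted p = 0.0211), and *myocd*, which encodes the myocardin coactivator of smooth muscle genes, measured 51.4 and 49.4 CPM in the WT BA and 9.41 and 15.9 CPM in the mutant SV (log2 fold change -1.85, adjusted p = 0.019). The smooth muscle myosin heavy chain gene *myh11a* measured 547 and 604 CPM in the WT BA and 83.9 and 227 CPM in the mutant SV and the actin gene *acta2* had a log2 fold change of -1.73, without overlap of the libraries, but they missed the threshold (adjusted p = 0.0535 and 0.0663). Of 45 genes of the list, 13 were called lower and 3 higher (35.6% against 7.32%), 35 had a log2 fold change below 0, and the median was -1.27. The list summed to 20959 and 24638 CPM in the WT BA, 5518 and 11506 CPM in the mutant SV and 21850 and 20902 CPM in the WT ventricle. *smtnl* stood at 24.5 and 29.7 FPKM in the WT ventricle and 6.11 and 4.7 FPKM in the WT BA. *mylka* stood at 0.774 and 1.32 FPKM in the WT ventricle and 127 and 131 FPKM in the WT BA. The part of heart muscle in the list was not tested.

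The paralogs of some of these genes went the other way. Caldesmon binds actin and restrains the myosin motor, and of its 2 genes *cald1a* was higher in the mutant SV, at 178 and 341 CPM against 58.3 and 51.1 CPM (log2 fold change 2.33, SE 0.37, adjusted p = 0.00538), while *cald1b* was lower, at 0.847 and 2.89 CPM in the mutant SV and 13.9 and 15.2 CPM in the WT BA (log2 fold change -2.75, adjusted p = 0.00865). The LIM protein gene *csrp1b* rose from 3.72 and 2.08 CPM in the WT BA to 39 and 110.3 CPM in the mutant SV (log2 fold change 5.04, SE 0.71, adjusted p = 0.00327), and the calponin gene *cnn3b* was also called higher (log2 fold change 2.04, adjusted p = 0.0124). The tropomyosin genes *tpm1* (log2 fold change -2.02, adjusted p = 0.0375) and *tpm4b* (log2 fold change -2.1, adjusted p = 0.0198) were called lower. *tpm2* measured 1261 and 1347 CPM in the WT BA and 27 and 606 CPM in the mutant SV, a spread of 22.4 times between the mutant SV replicates, and did not pass (adjusted p = 0.144). Within the mutant SV, the list was lower in replicate 1, with a median log2 ratio of replicate 2 over replicate 1 of 0.72, and 2 of the list were called lower without mutant SV replicate 1, 7 without WT BA replicate 1 and 16 without mutant SV replicate 2. The calls of *myl6*, *cald1a* and *csrp1b* held with any 1 of the 4 libraries left out. *cald1a* then had a log2 fold change of 1.67 without mutant SV replicate 2. *csrp1b* then had a log2 fold change of 4.1 without mutant SV replicate 2. *mylka* and *tpm1* lost their calls without mutant SV replicate 1 or WT BA replicate 1 or 2 (adjusted p = 0.162, 0.0673 and 0.0618 for *mylka*, and 0.191, 0.0777 and 0.0586 for *tpm1*). *myl9a*, *smtna*, *myocd* and *cald1b* lost their calls without mutant SV replicate 1 (adjusted p = 0.0617, 0.0727, 0.101 and 0.0672). *cnn1b* lost its call without mutant SV replicate 1 or WT BA replicate 1 (adjusted p = 0.127 and 0.0706). *cnn3b* lost its call without mutant SV replicate 2 or WT BA replicate 1 (adjusted p = 0.0542 and 0.0739). *tpm4b* lost its call without mutant SV replicate 1 or 2 or WT BA replicate 1 (adjusted p = 0.0856, 0.0696 and 0.0697).

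**Figure D2:**
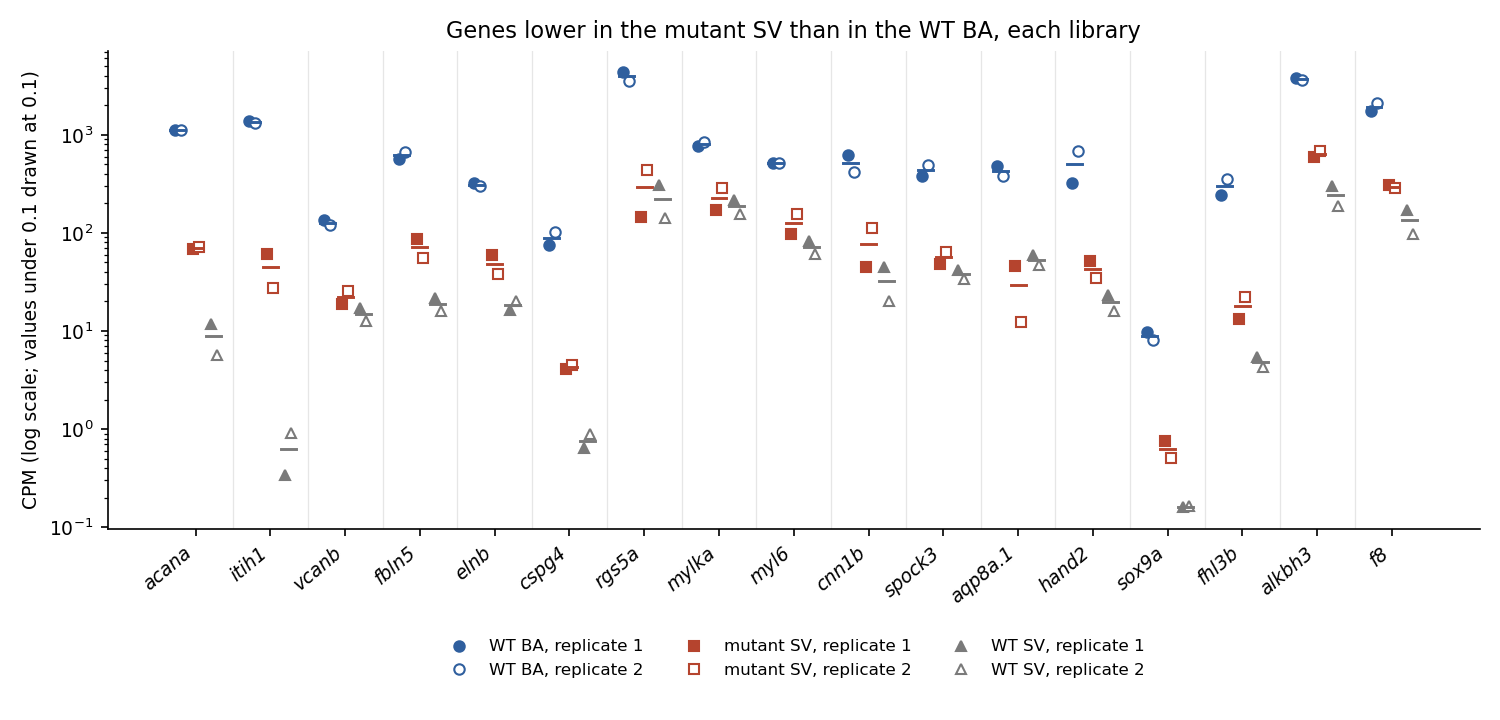
CPM on a log scale (y axis) of 17 genes called lower in the mutant SV, in each library of the WT BA (blue circles), the mutant SV (red squares) and the WT SV (grey triangles), with replicate 1 filled, replicate 2 open and the group mean as a bar. Both WT BA libraries lie above both mutant SV libraries for every gene shown, and *acana*, *itih1* and *cspg4* are among the genes that are lower again in the WT SV.

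Per length of transcript, levels of some of these genes could be compared on the FPKM scale (fragments per kilobase of transcript, scaled for depth). In the WT BA *acta2* stood at 3812 and 4789.7 FPKM, *tagln* at 1963 and 2551 FPKM, *myl9a* at 1392 and 1807 FPKM, *rgs5a* at 714 and 552 FPKM, *itih1* at 462 and 414 FPKM, *tpm2* at 282 and 283 FPKM, *fbln5* at 228 and 251 FPKM, *acana* at 175 and 165 FPKM and *elnb* at 47.2 and 41.2 FPKM. In the mutant SV *rgs5a* stood at 25.7 and 72.1 FPKM and *itih1* at 21.8 and 9.04 FPKM. There *tagln* stood at 544 and 2196 FPKM, *acta2* at 277 and 1927 FPKM, *fn1b* at 1692 and 600.2 FPKM and *dcn* at 121 and 156 FPKM. Thus *fn1b* exceeded *acta2* and *tagln* in mutant SV replicate 1 but not in replicate 2, and it lay below both in the WT BA, at 172 and 297 FPKM.

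Some mural cell genes and ion channel genes of smooth muscle were also lower in the mutant SV. *rgs5a* measured 4312 and 3554 CPM in the WT BA and 145 and 442 CPM in the mutant SV, 13.4 times higher in the WT BA (log2 fold change -3.62, SE 0.71, adjusted p = 0.0131), and this regulator of G protein signalling marks pericytes and vascular smooth muscle. *cspg4* measured 74.3 and 101 CPM in the WT BA and 4.1 and 4.53 CPM in the mutant SV, 20.4 times higher in the WT BA (log2 fold change -4.4, SE 0.57, adjusted p = 0.00265), and this gene encodes the NG2 proteoglycan of mural cells. Both genes separated the tissues completely. *pdgfab*, a PDGF ligand gene, was also lower in the mutant SV (log2 fold change -2.22, adjusted p = 0.0265), as was *abcc9*, which encodes the sulfonylurea receptor of vascular potassium channels (log2 fold change -1.61, adjusted p = 0.03). Of 23 mural cell and PDGF genes, 6 were called lower and 0 higher (26.1% against 7.32% of all genes tested, median log2 fold change -0.93). The mural cell and PDGF genes called higher numbered 1 without mutant SV replicate 2, and those called lower numbered 3 without mutant SV replicate 1. Of 33 ion channel and calcium genes of smooth muscle, 8 were called lower and 0 higher (24.2% against 7.32%, median -0.96). The list summed to 899 and 687 CPM in the WT BA, 464 and 413 CPM in the mutant SV and 6817 and 11880 CPM in the WT ventricle. In the WT ventricle *cacna1c* stood at 17.4 and 16.3 FPKM, against 4.78 and 3.66 FPKM in the WT BA. *trpc6a* stood at 0 and 0.127 FPKM in the WT ventricle and 6.12 and 8.44 FPKM in the WT BA. The part of heart muscle in these values was not tested. The L-type calcium channel gene *cacna1c*, through which calcium enters to start contraction, measured 65.3 and 53.2 CPM in the WT BA and 9.85 and 18.2 CPM in the mutant SV (log2 fold change -1.94, SE 0.32, adjusted p = 0.00613). Its accessory subunit genes *cacna2d1a* (log2 fold change -1.98, adjusted p = 0.0174) and *cacnb2a* (log2 fold change -2.4, adjusted p = 0.0492), the T-type gene *cacna1g* (log2 fold change -1.84, adjusted p = 0.0272) and the calcium pump gene *atp2a2b* (log2 fold change -1.26, adjusted p = 0.0352) were lower as well. The potassium channel subunit gene *kcne4*, named after its value was seen, measured 234 and 165 CPM in the WT BA and 27.1 and 13.3 CPM in the mutant SV (log2 fold change -3.43, adjusted p = 0.0114). *trpc6a* was called lower (log2 fold change -2.66, adjusted p = 0.0441) although its libraries overlapped, at 48.6 and 6.57 CPM in the mutant SV and 42.1 and 61.8 CPM in the WT BA, and in a fit without the factor its adjusted p was 0.661. The count of lower ion channel genes was 1 without mutant SV replicate 1, 4 without mutant SV replicate 2, 4 without WT BA replicate 1, 4 without WT BA replicate 2. The calls of *cspg4* and *cacna1c* held with any 1 of the 4 libraries left out. *rgs5a* and *cacna2d1a* lost their calls without mutant SV replicate 1 (adjusted p = 0.0721 and 0.0604). *pdgfab* lost its call without mutant SV replicate 2 or WT BA replicate 1 (adjusted p = 0.146 and 0.0761). *abcc9* and *cacna1g* lost their calls without mutant SV replicate 1 or 2 or WT BA replicate 2 (adjusted p = 0.15, 0.0586 and 0.0958 for *abcc9*, and 0.0518, 0.0582 and 0.0759 for *cacna1g*). *cacnb2a* lost its call without mutant SV replicate 1 or 2 or WT BA replicate 1 (adjusted p = 0.184, 0.448 and 0.235). *atp2a2b* lost its call without mutant SV replicate 1 or WT BA replicate 1 (adjusted p = 0.202 and 0.146). *trpc6a* lost its call without any 1 of the 4 libraries (adjusted p from 0.0791 to 0.496). *kcne4* lost its call without mutant SV replicate 2 (adjusted p = 0.0532).

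Of the arterial endothelial and Notch genes, 9 were lower in the mutant SV. *aqp8a.1* measured 482 and 379 CPM in the WT BA and 46.2 and 12.3 CPM in the mutant SV, 14.7 times higher in the WT BA (log2 fold change -4.29, SE 0.8, adjusted p = 0.0107). This water channel gene is expressed in zebrafish endothelium. *spock3* measured 377 and 495 CPM in the WT BA and 48.5 and 64.2 CPM in the mutant SV, 7.74 times higher in the WT BA (log2 fold change -2.97, SE 0.37, adjusted p = 0.00242), and its product is a proteoglycan of the testican family. For both genes the tissues did not overlap. In the WT SV *aqp8a.1* measured 58.9 and 46.5 CPM and *spock3* 41.8 and 33.9 CPM. These levels were not particular to the WT BA. *aqp8a.1* stood at 236 and 175 FPKM in the WT BA, 479 and 1162 FPKM in the WT atrium and 1116 and 844 FPKM in the WT ventricle. The whole list summed to 2576 and 2166 CPM in the WT BA, 3787 and 5041 CPM in the WT atrium and 4644 and 4616 CPM in the WT ventricle. The Notch target gene *hey2*, a repressor that promotes arterial fate, measured 14.1 and 19.4 CPM in the WT BA and 4.17 and 0.746 CPM in the mutant SV (log2 fold change -3.57, adjusted p = 0.0108), and the Notch ligand gene *jag2b* 16.9 and 15 CPM in the WT BA and 3.89 and 5.75 CPM in the mutant SV (log2 fold change -1.67, adjusted p = 0.0268). *gja5b*, an arterial connexin gene, had 1 and 0 counts in the mutant SV and 1.33 and 0.338 CPM in the WT BA (95% counting interval of the ratio of the WT BA over the mutant SV 12.1 to 2817, adjusted p = 0.0136). The receptor gene *notch1b* measured 251 and 289.6 CPM in the WT BA and 82.3 and 155 CPM in the mutant SV and missed the threshold (log2 fold change -1.09, adjusted p = 0.0589). Of 45 arterial and Notch genes, 9 were called lower and 2 higher (24.4% against 7.32%), with 34 below 0 and a median of -0.81. The arterial and Notch genes called higher numbered 1 without mutant SV replicate 1 and 0 without mutant SV replicate 2 or WT BA replicate 1, and those called lower numbered 4 without mutant SV replicate 1 and 5 without WT BA replicate 1. Those called higher were *lfng*, which encodes the Fringe enzyme that modifies Notch, at 78.4 and 109 CPM against 22.8 and 42.1 CPM (log2 fold change 1.58, adjusted p = 0.0208), and the BMP receptor gene *acvrl1* (log2 fold change 1.38, adjusted p = 0.0495). The calls of *aqp8a.1* and *spock3* held with any 1 of the 4 libraries left out. *aqp8a.1* then had a log2 fold change of -5.16 without mutant SV replicate 1 and -3.01 without mutant SV replicate 2. *hey2* and *gja5b* lost their calls without mutant SV replicate 2 (adjusted p = 0.13 and 0.0643). *jag2b* lost its call without mutant SV replicate 1 or WT BA replicate 1 (adjusted p = 0.143 and 0.0777). *lfng* lost its call without mutant SV replicate 2 or WT BA replicate 1 (adjusted p = 0.111 and 0.113). *acvrl1* lost its call without any 1 of the 4 libraries (adjusted p from 0.0743 to 0.182).

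Few pan-endothelial or venous genes passed the test. Of 29 pan-endothelial genes, 3 were called lower and 0 higher (10.3% against 7.32% of all genes tested, median -0.71): von Willebrand factor, with *vwf* at 1503 and 2109 CPM in the WT BA and 337 and 767 CPM in the mutant SV (log2 fold change -1.6, adjusted p = 0.0248), the transcription factor gene *sox7* (log2 fold change -1.82, adjusted p = 0.032) and the secreted multimerin gene *mmrn2a* (log2 fold change -2.28, SE 0.38, adjusted p = 0.00705). The partner of von Willebrand factor in clotting, coagulation factor VIII, was named after its value was seen and was lower in the mutant SV, with *f8* at 1746 and 2120.1 CPM in the WT BA and 308 and 284 CPM in the mutant SV (log2 fold change -2.82, SE 0.37, adjusted p = 0.00279). The level of *f8* was not particular to the WT BA. It stood at 236 and 270 FPKM there, 199 and 260 FPKM in the WT atrium and 295 and 371 FPKM in the WT ventricle. The cadherin gene of endothelial junctions, *cdh5*, measured 23.7 and 8.69 CPM in the WT BA and 4.92 and 4.36 CPM in the mutant SV (adjusted p = 0.0591), and *flt1*, a VEGF receptor gene, 40.6 and 14.9 CPM in the WT BA and 15.3 and 11.5 CPM in the mutant SV (adjusted p = 0.292). Neither passed the test, nor did the endothelial progenitor genes *etv2*, *lmo2* and *tal1* (log2 fold changes -0.29, 0.47 and 1.3, adjusted p = 0.716, 0.326 and 0.0592). Of 31 venous and lymphatic genes, 2 were called higher and 0 lower in the mutant SV (6.45% against 7.32%), and the median was 0.29. The pan-endothelial genes called higher numbered 1 without mutant SV replicate 1 and 2 without WT BA replicate 2, and those called lower numbered 1 without mutant SV replicate 1 and 6 without WT BA replicate 2. The venous and lymphatic genes called higher numbered 1 without mutant SV replicate 1 or WT BA replicate 1 or 2, and those called lower numbered 1 without WT BA replicate 2. *nr2f1a* itself measured 13.1 and 24.6 CPM in the mutant SV against 2.31 and 2.37 CPM in the WT BA (log2 fold change 3.08, SE 0.42, adjusted p = 0.00299), and 17.9 and 9.67 CPM in the WT SV. Since the allele is still transcribed, this level does not check the genotype labels. *dab2*, which encodes an endocytic adaptor of venous endothelium, was also higher, at 19.8 and 20.2 CPM against 4.43 and 4.79 CPM (log2 fold change 2.5, adjusted p = 0.036). The related gene *nr2f2* (log2 fold change 1.22, adjusted p = 0.106) and the lymphatic genes *prox1a* (adjusted p = 0.83), *flt4* (0.368), *lyve1b* (0.169) and *stab2* (0.445) did not pass. The calls of *f8* and *nr2f1a* held with any 1 of the 4 libraries left out. *nr2f1a* then had a log2 fold change of 2.4 without mutant SV replicate 2. *vwf* lost its call without mutant SV replicate 1 or WT BA replicate 2 (adjusted p = 0.16 and 0.0778). *sox7* lost its call without mutant SV replicate 1 or WT BA replicate 1 (adjusted p = 0.16 and 0.0898). *mmrn2a* lost its call without mutant SV replicate 2 (adjusted p = 0.076). *dab2* lost its call without mutant SV replicate 1 or WT BA replicate 1 or 2 (adjusted p = 0.0866, 0.13 and 0.0681).

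Of the transcription factors and other genes of outflow tract development, 8 were lower in the mutant SV. *hand2* measured 322 and 680.2 CPM in the WT BA and 51.4 and 34.4 CPM in the mutant SV, 11.7 times higher in the WT BA (log2 fold change -3.81, SE 0.42, adjusted p = 0.00136). Hand2 is a basic helix-loop-helix factor of the second heart field and the outflow tract. *sox9a* measured 9.87 and 8.06 CPM in the WT BA and 0.756 and 0.506 CPM in the mutant SV (log2 fold change -4.29, SE 0.6, adjusted p = 0.00327), and this regulator of cartilage and valve matrix drives aggrecan in chondrocytes. Neither gene's libraries overlapped. The GATA factor genes *gata6* (log2 fold change -2.03, adjusted p = 0.00972) and *gata5* (log2 fold change -1.81, adjusted p = 0.0369), the forkhead genes *foxc1a* (log2 fold change -2.16, adjusted p = 0.00557) and *foxc1b* (log2 fold change -1.89, adjusted p = 0.0203) and the T-box gene *tbx20* (log2 fold change -1.71, adjusted p = 0.0425) were also lower in the mutant SV. Some of these genes were not particular to the WT BA. *tbx20* stood at 11.3 and 5.13 FPKM in the WT BA and 24.6 and 21.6 FPKM in the WT atrium. *gata6* stood at 38.5 and 67.2 FPKM in the WT BA and 29.3 and 40.6 FPKM in the WT atrium. The whole list summed to 1770 and 2206 CPM in the WT BA, 767 and 1368 CPM in the WT atrium and 828 and 1288 CPM in the WT ventricle. Of 43 genes of the list 8 were called lower and 1 higher (20.9% against 7.32% of all genes tested). The outflow tract genes called higher numbered 2 without mutant SV replicate 2, and those called lower numbered 3 without mutant SV replicate 1, 4 without mutant SV replicate 2 and 5 without WT BA replicate 1. The median was -0.03, and 0.06 with DESeq2 size factors in place of TMM. The gene called higher was the homeobox gene *six1a*, at 3.53 and 5.2 CPM in the mutant SV, 3.32 and 2.86 CPM in the WT SV and 0.109 and 0.078 CPM in the WT BA (log2 fold change 5.74, SE 0.71, adjusted p = 0.00327). Of 26 inflow and pacemaker factors, edgeR called 0 higher and 0 lower, while 6 had an unadjusted p below 0.05 and DESeq2 called 2, and their median was 0.42. The calls of *hand2*, *sox9a*, *foxc1a* and *six1a* held with any 1 of the 4 libraries left out. *hand2* then had a log2 fold change of -3.19 without WT BA replicate 2. *gata6* lost its call without mutant SV replicate 1 (adjusted p = 0.0604). *gata5* lost its call without mutant SV replicate 1 or 2 or WT BA replicate 2 (adjusted p = 0.121, 0.243 and 0.125). *foxc1b* and *tbx20* lost their calls without mutant SV replicate 1 or 2 or WT BA replicate 1 (adjusted p = 0.0786, 0.0566 and 0.0622 for *foxc1b*, and 0.116, 0.121 and 0.207 for *tbx20*).

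Hox genes pattern tissues along the body axis, and 5 of them were higher in the mutant SV. Of 21 tested, 5 were called higher and 0 lower, 19 had a log2 fold change above 0, and the median was 3.4. Over all genes tested 3.49% were called higher. The Hox genes called higher numbered 2 without mutant SV replicate 2 and 3 without WT BA replicate 1 or 2. Levels were low: the WT BA was at 3 counts or fewer in both libraries for 10 of the 21. *hoxa4a* measured 4.97 and 11 CPM in the mutant SV against 0.408 and 1.22 CPM in the WT BA (log2 fold change 3.4, adjusted p = 0.0097), *hoxa1a* 5.22 and 18.6 against 0.435 and 2.71 CPM (log2 fold change 3.06, adjusted p = 0.0287), and *hoxb5a* 6.34 and 5.01 against 0.163 and 0.156 CPM (log2 fold change 5.06, adjusted p = 0.0341). *hoxc3a* had 3 and 0 counts in the WT BA (ratio of the mutant SV over the WT BA 53.9, 95% counting interval 18.1 to 264, adjusted p = 0.0174), and *hoxb6a* was the other gene called (ratio 18.7, 95% counting interval 7.78 to 58.8, adjusted p = 0.0232). Hox genes at higher levels in the WT BA did not pass the test. *hoxb2a* measured 6.31 and 7.08 CPM in the WT BA and 3.3 and 5.25 CPM in the mutant SV (adjusted p = 0.604), and *hoxb3a* 20.1 and 14.9 CPM in the WT BA and 13 and 9.6 CPM in the mutant SV (adjusted p = 0.558). *hoxa4a* and *hoxa1a* lost their calls without mutant SV replicate 2 (adjusted p = 0.0766 and 0.251). *hoxb5a* lost its call without any 1 of the 4 libraries (adjusted p from 0.0757 to 0.119). *hoxc3a* lost its call without WT BA replicate 2 (adjusted p = 0.0504). *hoxb6a* lost its call without WT BA replicate 1 or 2 (adjusted p = 0.0924 and 0.0715).

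Wnt ligands were higher and Wnt receptors lower in the mutant SV among the genes that passed the test. In the Wnt list of 46 genes, 5 were called higher and 6 lower (23.9% against 7.32%), with a median log2 fold change of -0.02, or 0.06 with DESeq2 size factors. The Wnt genes called higher numbered 3 without WT BA replicate 1. Ligands and their R-spondin amplifier were among those higher in the mutant SV. *wnt2ba* had 0 counts in the WT BA and 1.72 and 0.867 CPM in the mutant SV, at least 32.7-fold higher (adjusted p = 0.00642), *wnt5b* measured 6.5 and 14.3 against 3.81 and 1.38 CPM (log2 fold change 2.23, adjusted p = 0.0268), and *rspo3* 23.2 and 27.4 against 3.32 and 2.37 CPM (log2 fold change 3.04, SE 0.56, adjusted p = 0.00972). Of the receptors, *fzd8a* measured 0.229 and 0.602 CPM against 25.7 and 6.35 CPM (log2 fold change -4.81, SE 0.75, adjusted p = 0.00514), *fzd7a* 7.63 and 11.2 against 52.1 and 56.2 CPM (log2 fold change -2.41, adjusted p = 0.00951), and the R-spondin receptor gene *lgr4* 6.02 and 6.76 against 52 and 59.8 CPM (log2 fold change -3.0, SE 0.37, adjusted p = 0.00236). Secreted inhibitors were found on both sides. *wif1*, which binds Wnt ligands, was 5.92 times higher in the WT BA, with 58 and 95.6 CPM against 20.5 and 5.46 CPM (log2 fold change -3.49, SE 0.38, adjusted p = 0.00136), and *dkk3b* (log2 fold change -2.14, adjusted p = 0.00523) and *sfrp2* (log2 fold change -4.08, adjusted p = 0.0215) were also lower in the mutant SV, whereas *sfrp1b* (log2 fold change 4.3, adjusted p = 0.0275) and *sfrp5* (log2 fold change 2.83, adjusted p = 0.0443) were higher. The Wnt antagonist gene *sost*, named after its value was seen, measured 37.9 and 60.9 CPM in the mutant SV and 0.924 and 3.36 CPM in the WT BA (log2 fold change 4.57, SE 0.63, adjusted p = 0.00317). The calls of *wnt2ba*, *rspo3*, *fzd8a*, *lgr4*, *wif1*, *dkk3b* and *sost* held with any 1 of the 4 libraries left out. *fzd8a* then had a log2 fold change of -5.52 without mutant SV replicate 2, -3.7 without WT BA replicate 1 and -5.58 without WT BA replicate 2. *wif1* then had a log2 fold change of -2.33 without mutant SV replicate 2. *sost* then had a log2 fold change of 3.94 without WT BA replicate 1 and 5.84 without WT BA replicate 2. *wnt5b* lost its call without mutant SV replicate 2 or WT BA replicate 2 (adjusted p = 0.188 and 0.0834). *fzd7a* lost its call without mutant SV replicate 1 (adjusted p = 0.0531). *sfrp2* lost its call without mutant SV replicate 1 or WT BA replicate 1 (adjusted p = 0.101 and 0.0562). *sfrp1b* lost its call without mutant SV replicate 1 or WT BA replicate 1 or 2 (adjusted p = 0.0729, 0.0948 and 0.0646). *sfrp5* lost its call without mutant SV replicate 2 or WT BA replicate 1 (adjusted p = 0.216 and 0.208).

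Of 67 TGF-beta and BMP genes, 4 were called higher and 5 lower (13.4% against 7.32% of all genes tested, median -0.68). The TGF-beta and BMP genes called higher numbered 2 without any 1 of the 4 libraries, and those called lower numbered 1 without mutant SV replicate 1, 9 without WT BA replicate 1 and 3 without WT BA replicate 2. The type I and type II activin receptor genes *acvr1ba* (log2 fold change -2.37, adjusted p = 0.012) and *acvr2b* (log2 fold change -2.26, adjusted p = 0.0331) and the pseudoreceptor genes *bambia* (log2 fold change -2.85, SE 0.42, adjusted p = 0.00385) and *bambib* (log2 fold change -1.67, adjusted p = 0.0142), whose products dampen the signal, were lower in the mutant SV. *bambia* measured 35 and 16.6 CPM there and 120.2 and 183 CPM in the WT BA. The ligand gene *bmp5* was at 1.72 and 1.54 CPM in the mutant SV and at 2 counts in each WT BA library (ratio of the mutant SV over the WT BA 30.7, 95% counting interval 11.7 to 114, adjusted p = 0.00244), and *gdf10b*, another ligand gene of the family, had 0 counts in the WT BA and 0.962 and 0.53 CPM in the mutant SV (at least 18.8-fold higher, adjusted p = 0.0368). FGF receptors, a list set after values were seen, were lower in 3 of 6 tested members (against 3.82% of all genes tested): *fgfr1a* at 1.12 and 1.78 against 13.4 and 10.5 CPM (log2 fold change -3.21, adjusted p = 0.0375), *fgfr3* at 6.59 and 13 against 59.7 and 61.9 CPM (log2 fold change -2.5, adjusted p = 0.00353) and *fgfr4* at 10.2 and 8.79 against 64 and 33.9 CPM (log2 fold change -2.6, adjusted p = 0.00547). The calls of *bambia*, *bmp5*, *fgfr3* and *fgfr4* held with any 1 of the 4 libraries left out. *bambia* then had a log2 fold change of -2.14 without mutant SV replicate 2. *fgfr3* then had a log2 fold change of -3.17 without mutant SV replicate 2. *acvr1ba* lost its call without mutant SV replicate 1 (adjusted p = 0.0639). *acvr2b* lost its call without mutant SV replicate 1 or 2 or WT BA replicate 2 (adjusted p = 0.168, 0.0633 and 0.113). *bambib* lost its call without mutant SV replicate 1 or WT BA replicate 2 (adjusted p = 0.0889 and 0.0542). *gdf10b* lost its call without mutant SV replicate 1 or WT BA replicate 1 or 2 (adjusted p = 0.0747, 0.126 and 0.0804). *fgfr1a* lost its call without mutant SV replicate 1 or WT BA replicate 1 (adjusted p = 0.089 and 0.118).

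Of the genes that act on vessel tone, 4 were higher in the mutant SV and 2 were lower. *gucy1a3* measured 0.163 and 0.104 CPM in the WT BA and 4.85 and 95.4 CPM in the mutant SV. This subunit of the nitric oxide receptor guanylate cyclase was higher in both mutant SV libraries (log2 fold change 8.66, SE 0.67, adjusted p = 0.000406), although these differed 19.6 times between them, and it measured 37.8 and 43.3 CPM in the WT SV. *enpep* measured 1.17 and 0.884 CPM in the WT BA and 22.2 and 37.1 CPM in the mutant SV, 28.9 times higher in the mutant SV (log2 fold change 5.28, SE 0.51, adjusted p = 0.000868), and its product cleaves angiotensin II. The vasodilator adrenomedullin was higher as well, with *admb* at 129 and 154 CPM in the mutant SV and 2.69 and 17.3 CPM in the WT BA (log2 fold change 3.77, SE 0.72, adjusted p = 0.0115). The angiotensinogen gene *agt* measured 215 and 3.27 CPM in replicates 1 and 2 of the mutant SV and 0.544 and 0.104 CPM in the WT BA (log2 fold change 4.48, adjusted p = 0.0255), and the liver makes most of this protein. The vasopressin receptor gene *avpr1aa* (log2 fold change -3.34, adjusted p = 0.00718) and the prostaglandin receptor gene *ptger4a* (log2 fold change -4.5, adjusted p = 0.0155) were lower in the mutant SV. Neither was particular to the WT BA. *avpr1aa* stood at 2.73 and 2.16 FPKM in the WT BA and 6.83 and 7.87 FPKM in the WT ventricle. *ptger4a* stood at 0.875 and 2.34 FPKM in the WT BA and 9.34 and 4.33 FPKM in the WT atrium. Of 53 genes of the list, 4 were called higher and 2 lower (11.3% against 7.32% of all genes tested, median -0.19). The vessel tone genes called lower numbered 1 without mutant SV replicate 1 and 5 without WT BA replicate 2. The calls of *gucy1a3*, *enpep*, *admb* and *avpr1aa* held with any 1 of the 4 libraries left out. *gucy1a3* then had a log2 fold change of 9.37 without mutant SV replicate 1 and 5.62 without mutant SV replicate 2. *admb* then had a log2 fold change of 3.0 without WT BA replicate 1 and 5.69 without WT BA replicate 2. *agt* and *ptger4a* lost their calls without mutant SV replicate 1 (adjusted p = 0.17 and 0.0825).

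**Figure D3:**
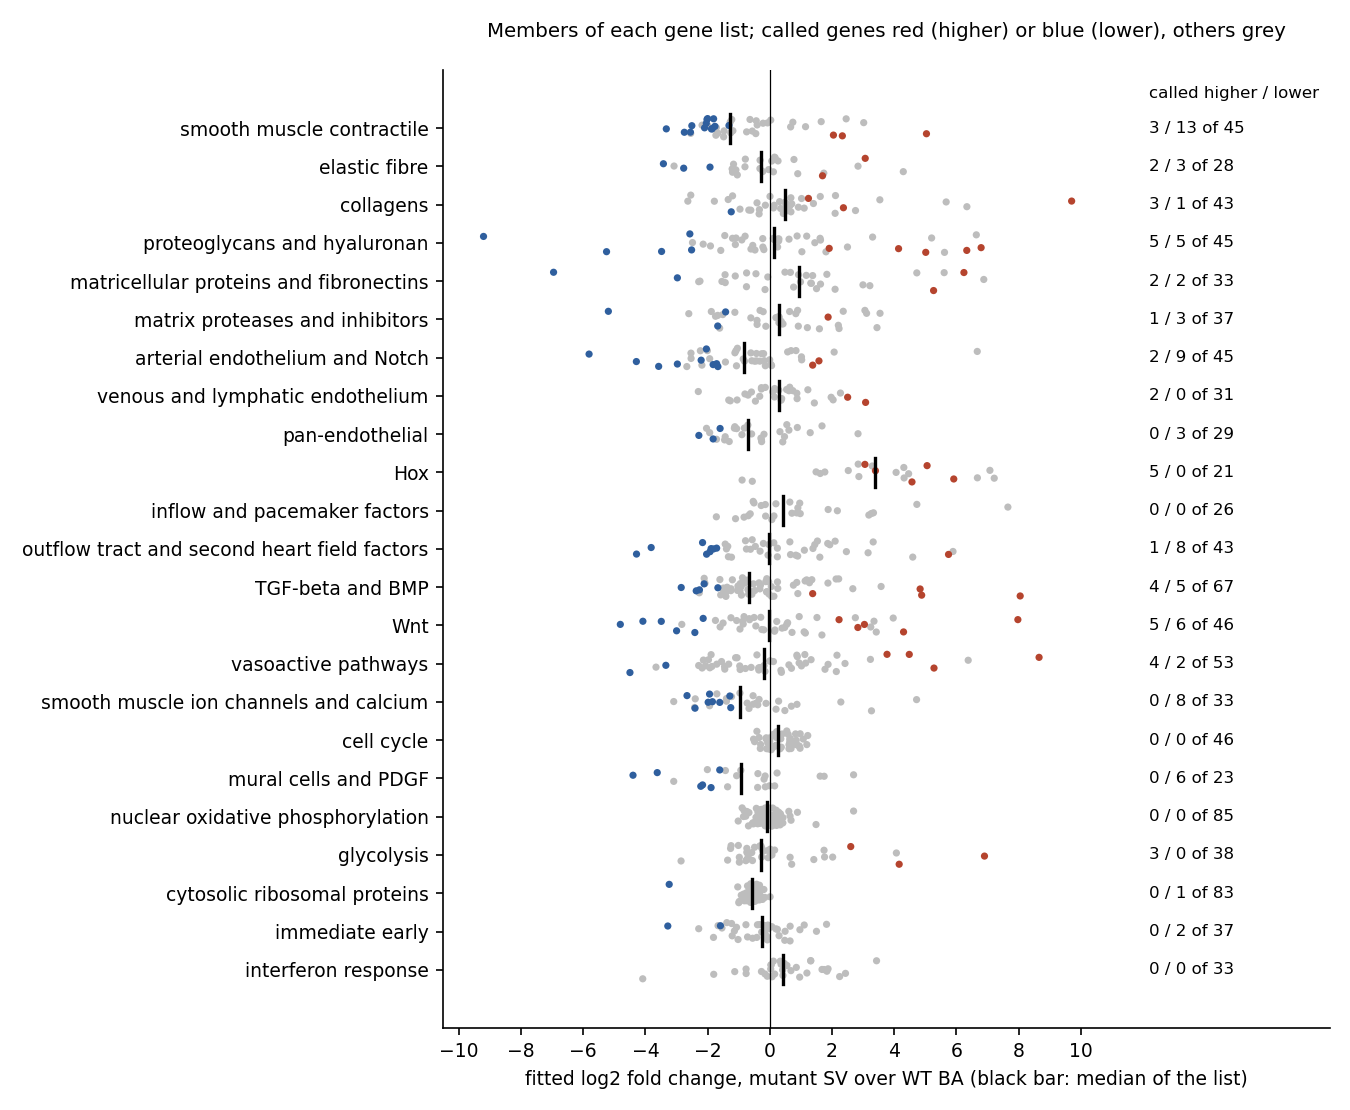
The fitted log2 fold change of the mutant SV over the WT BA (x axis) of every tested member of 23 gene lists (y axis), with called genes in red (higher) or blue (lower), other genes in grey and the median of each list as a black bar. The number of called genes in each direction of those tested stands at the right; the lists of smooth muscle, arterial, mural and ion channel genes have their called members mostly below 0 and the Hox list above 0.

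Neuron markers and some peptide genes were higher in the mutant SV. Of 24 tested neuron markers, 12 were called higher and 0 lower against 3.49% and 3.82% of all genes tested, and the summed level was 47.6 and 112 CPM in the mutant SV, 21.1 and 17.5 CPM in the WT BA and 149 and 64 CPM in the WT SV. For 11 of the 24 genes both WT BA libraries were at 3 counts or fewer. Without the RUVs factor 9 were called higher, and with the replicate number in the model in its place 3 were. *phox2a*, the homeobox gene of autonomic neurons, measured 1.47 and 5.46 CPM in the mutant SV and 0.19 and 0.13 CPM in the WT BA (log2 fold change 4.58, SE 0.67, adjusted p = 0.00385), and the growth cone gene *gap43* 4.37 and 4.38 against 0.326 and 0.364 CPM (log2 fold change 3.68, adjusted p = 0.0115). The cholinergic genes *chata* and *slc18a3a* were at 0 counts in the WT BA and in mutant SV replicate 1. In the WT SV *chata* measured 5.42 and 2.05 CPM and *slc18a3a* 7.91 and 2.38 CPM. Genes of signalling peptides differed further. *vip* measured 0.353 and 0.052 CPM in the WT BA and 16 and 51.9 CPM in the mutant SV (log2 fold change 7.64, SE 0.84, adjusted p = 0.00136), and its paralog *vipb*, also for vasoactive intestinal peptide, measured 0.462 and 0.442 CPM in the WT BA and 22.5 and 83.9 CPM in the mutant SV (log2 fold change 7.12, SE 0.69, adjusted p = 0.000868). *calca* measured 0.19 and 0.078 CPM in the WT BA and 219.6 and 36 CPM in the mutant SV (log2 fold change 8.77, SE 1.31, adjusted p = 0.00404), and this gene of the calcitonin and CGRP peptides measured 2580.2 and 249 CPM in the WT SV. In all 3 peptide genes every mutant SV library lay above both WT BA libraries. Between the mutant SV replicates *calca* was higher in replicate 1, and *vip*, *vipb* and the neuron sum were higher in replicate 2. The cells and tissues that held the peptide transcripts were not tested. Of 17 glia and neural crest genes, 3 were called higher and 0 lower (17.6% against 7.32%), among them the myelin gene *mbpa* (log2 fold change 4.73, adjusted p = 0.00274). The summed level of this list overlapped between the tissues, at 239 and 574 CPM in the mutant SV and 848 and 377 CPM in the WT BA. Without the RUVs factor 0 of its genes were called. The glia and neural crest genes called higher numbered 1 without WT BA replicate 2. The neuron markers called higher numbered 11 without mutant SV replicate 1, 4 without mutant SV replicate 2, 6 without WT BA replicate 1, 10 without WT BA replicate 2. The calls of *phox2a*, *vip*, *vipb*, *calca* and *mbpa* held with any 1 of the 4 libraries left out. *phox2a* then had a log2 fold change of 3.24 without mutant SV replicate 2. *vip* then had a log2 fold change of 6.54 without mutant SV replicate 2, 9.39 without WT BA replicate 1 and 6.81 without WT BA replicate 2. *vipb* then had a log2 fold change of 5.87 without mutant SV replicate 2. *calca* then had a log2 fold change of 8.04 without mutant SV replicate 1, 10.69 without mutant SV replicate 2, 9.59 without WT BA replicate 1 and 8.18 without WT BA replicate 2. *mbpa* then had a log2 fold change of 2.93 without mutant SV replicate 2, 5.73 without WT BA replicate 1 and 4.02 without WT BA replicate 2. *gap43* lost its call without WT BA replicate 1 (adjusted p = 0.0521).

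Genes of plasma proteins had some of the largest fold changes, and in these genes the mutant SV replicates differed strongly. *hpx* measured 0.0272 and 0.026 CPM in the WT BA and 848 and 16.3 CPM in the mutant SV. Hemopexin, a heme carrier of the plasma made by the liver, had 1 count in each WT BA library (ratio of the mutant SV over the WT BA 16646, 95% counting interval 4608 to 137461, adjusted p = 0.00638), and mutant SV replicate 1 was 52.1 times above replicate 2. The counting interval pools the replicates and does not cover this difference between them. The fibrinogen chain genes *fga*, *fgb* and *fgg* measured 967, 698 and 814 CPM in mutant SV replicate 1, 16.4, 24.6 and 36.1 CPM in replicate 2, and at most 0.208 CPM in the WT BA. The apolipoprotein gene *apoa1b* measured 2118 and 243 CPM in the mutant SV and 3.62 and 1.27 CPM in the WT BA (log2 fold change 8.49, SE 1.68, adjusted p = 0.0134), and *apoa2* 1294 and 135 against 2.2 and 1.14 CPM (log2 fold change 8.15, SE 1.54, adjusted p = 0.0111). Every mutant SV library lay above every WT BA library in these genes. Among the 10 largest fold changes above the level set for naming, the others of this kind were *a2ml*, *apobb.1*, *plg* and *serpina1*. *plg*, which encodes plasminogen, measured 155 and 5.3 CPM in the mutant SV. Of 28 tested hepatocyte markers, 18 were called higher and 0 lower (64.3% against 7.32%), the median log2 fold change was 6.53, and the median log2 ratio of replicate 2 over replicate 1 in the mutant SV was -3.85. The summed level of the list was 12940.3 and 3089.7 CPM in the mutant SV, 2906 and 7803 CPM in the WT BA and 3911 and 3793 CPM in the WT SV. In the WT BA most of the sum was *rbp4*, a retinol carrier gene at 2521 and 7367 CPM, and for 11 of the 28 genes both WT BA libraries were at 3 counts or fewer. The hepatocyte markers called higher numbered 9 without WT BA replicate 1. The log2 fold change of *hpx* was 8.94 without mutant SV replicate 1 and 15.67 without replicate 2. Whether liver tissue taken up in dissection had a part in these values was not tested. The calls of *hpx*, *fgb*, *fgg*, *apoa1b*, *apoa2*, *apobb.1* and *plg* held with any 1 of the 4 libraries left out. *fgg* then had a log2 fold change of 7.43 without mutant SV replicate 1 and 12.71 without mutant SV replicate 2. *apoa1b* then had a log2 fold change of 6.55 without mutant SV replicate 1, 10.78 without mutant SV replicate 2, 9.27 without WT BA replicate 1 and 7.7 without WT BA replicate 2. *apoa2* then had a log2 fold change of 6.23 without mutant SV replicate 1 and 10.4 without mutant SV replicate 2. *a2ml* lost its call without mutant SV replicate 1 or WT BA replicate 1 or 2 (adjusted p = 0.0877, 0.0668 and 0.0542). *fga* and *serpina1* lost their calls without WT BA replicate 1 (adjusted p = 0.0575 and 0.0607).

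A further gene rested on 1 library. *tg*, which encodes thyroglobulin, the storage protein of thyroid follicles, measured 1.31 and 280.2 CPM in replicates 1 and 2 of the mutant SV, 0.0816 and 0.052 CPM in the WT BA and 2.01 and 0.396 CPM in the WT SV. It was called (ratio of the mutant SV over the WT BA 2066, 95% counting interval 885 to 6363, adjusted p = 0.00725), but not without mutant SV replicate 2 (adjusted p = 0.159). Of the 4 thyroid markers tested it was the only gene called, and the summed level of the list was 3.96 and 285 CPM in the mutant SV and 6.25 and 4.86 CPM in the WT BA. The counting interval of *tg* pools the replicates and does not cover the difference between them. The part of thyroid tissue in mutant SV replicate 2 was not tested.

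**Figure D4:**
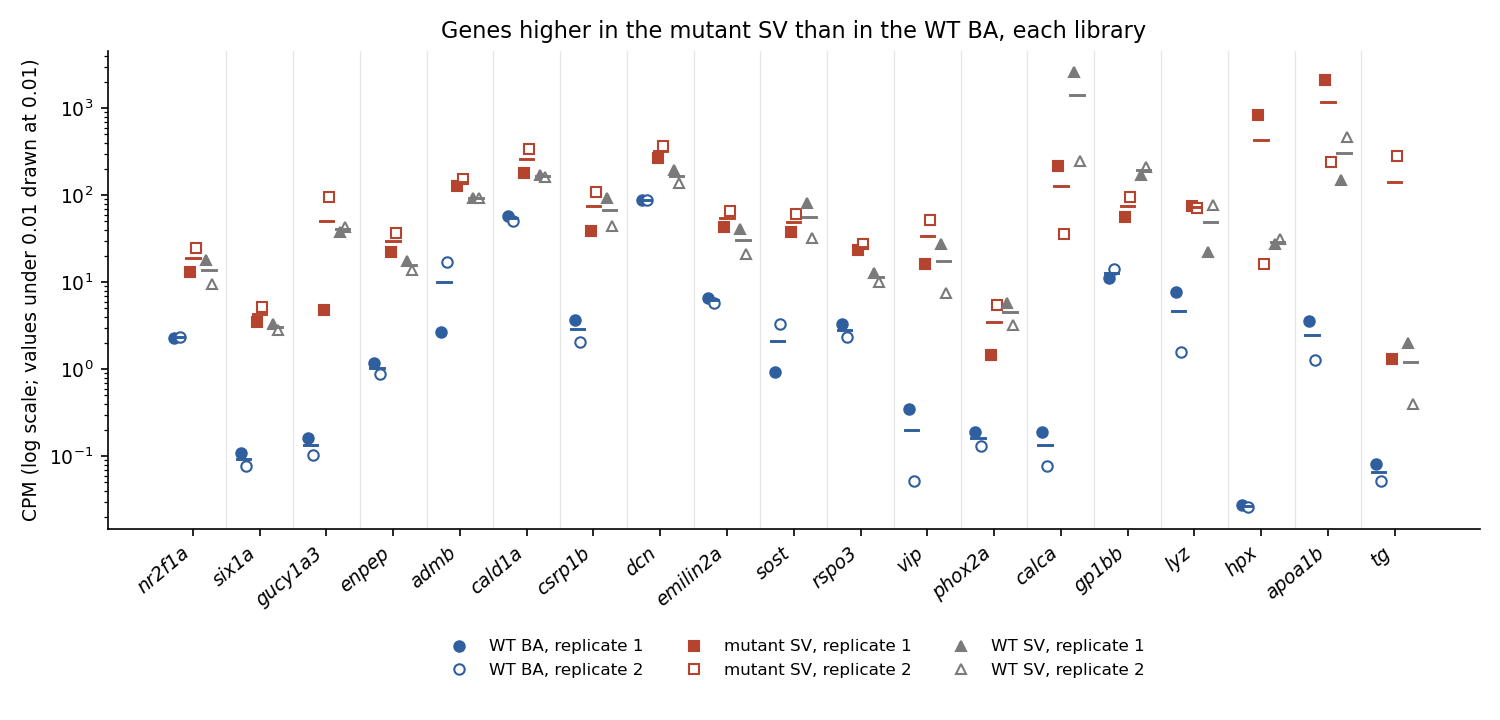
CPM on a log scale (y axis) of 19 genes called higher in the mutant SV, in each library of the WT BA (blue circles), the mutant SV (red squares) and the WT SV (grey triangles), with replicate 1 filled, replicate 2 open and the group mean as a bar. The mutant SV replicates lie close together for *admb*, *dcn* and *lyz* and far apart for *hpx* (848 and 16.3 CPM) and *tg* (1.31 and 280.2 CPM).

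Of the erythrocyte genes, 3 were higher and 3 were lower in the mutant SV, and the lower ones were all globin genes. Without the RUVs factor 3 were called higher and 0 lower, so the calls of the lower globin genes depended on this factor. The heme synthesis gene *alas2* measured 955 and 1089.6 CPM in the mutant SV and 269 and 324 CPM in the WT BA (log2 fold change 1.66, SE 0.35, adjusted p = 0.0181), and the nucleotidase gene *nt5c2l1* 443 and 644 against 109 and 177 CPM (log2 fold change 2.02, adjusted p = 0.0115). In the WT SV *alas2* measured 1737 and 2310.5 CPM and *nt5c2l1* 4186 and 2233 CPM. The beta-globin gene *hbba2* was lower in the mutant SV, at 360.5 and 560.0 CPM against 1658 and 2982 CPM (log2 fold change -2.44, adjusted p = 0.0343), and so was the alpha-globin gene *hbaa2*, at 215 and 276 CPM against 989.6 and 1909.7 CPM (log2 fold change -2.74, adjusted p = 0.0235). *hbae1.3* was called lower (log2 fold change -3.71, adjusted p = 0.0114) although its libraries overlapped, at 4.99 and 0.193 CPM in the mutant SV and 0.952 and 5.98 CPM in the WT BA. The globin gene *ba1*, at 23512 and 29374 CPM in the mutant SV and 11913 and 22002 CPM in the WT BA, had its libraries the other way round without passing the test (adjusted p = 0.475). Reads may be split among near-identical globin genes. Of 16 erythrocyte genes, 3 were called higher and 3 lower (37.5% against 7.32% of all genes tested), and the summed level was 51777 and 71854 CPM in the mutant SV and 32947 and 54190.0 CPM in the WT BA, so that the sums overlapped. The erythrocyte genes called higher numbered 0 without mutant SV replicate 2 or WT BA replicate 1, and those called lower numbered 0 without mutant SV replicate 1 or WT BA replicate 2. Of 8 thrombocyte genes 3 were called higher and 1 lower (against 3.49% and 3.82% of all genes tested), among them the platelet glycoprotein genes *gp1bb*, at 57 and 95.6 CPM against 11.2 and 14.2 CPM (log2 fold change 2.8, SE 0.37, adjusted p = 0.00281), and *gp9* (log2 fold change 2.51, adjusted p = 0.00299). Of 11 neutrophil genes 4 were called higher and 0 lower (36.4% against 7.32%), with the lysozyme gene *lyz* at 75.4 and 72.1 CPM in the mutant SV and 7.83 and 1.59 CPM in the WT BA (log2 fold change 3.87, SE 0.75, adjusted p = 0.0121). Of 23 macrophage and pan-leukocyte genes 2 were called higher and 1 lower (13% against 7.32%), and the summed level was 1838 and 1872 CPM against 991 and 1043 CPM. The macrophage and pan-leukocyte genes called higher numbered 1 without mutant SV replicate 1 or WT BA replicate 2 and 0 without WT BA replicate 1, and those called lower numbered 0 without mutant SV replicate 1 or 2. The chemokine gene *ccl25b*, which attracts lymphoid cells, was also higher in the mutant SV, at 520.0 and 922 CPM against 59.9 and 37.9 CPM (log2 fold change 3.94, SE 0.81, adjusted p = 0.0157). The calls of *gp1bb*, *gp9* and *lyz* held with any 1 of the 4 libraries left out. *gp9* then had a log2 fold change of 1.79 without mutant SV replicate 2. *lyz* then had a log2 fold change of 5.43 without WT BA replicate 1 and 3.11 without WT BA replicate 2. *alas2* and *nt5c2l1* lost their calls without mutant SV replicate 2 or WT BA replicate 1 (adjusted p = 0.0534 and 0.108 for *alas2*, and 0.0633 and 0.0777 for *nt5c2l1*). *hbba2* and *hbaa2* lost their calls without mutant SV replicate 1 or WT BA replicate 2 (adjusted p = 0.108 and 0.0962 for *hbba2*, and 0.0552 and 0.0669 for *hbaa2*). *hbae1.3* lost its call without mutant SV replicate 1 or 2 or WT BA replicate 2 (adjusted p = 0.127, 0.619 and 0.0887). *ccl25b* lost its call without mutant SV replicate 2 or WT BA replicate 1 or 2 (adjusted p = 0.0531, 0.0515 and 0.0542).

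Markers of further cell types were called in smaller numbers, against 3.49% higher and 3.82% lower of all genes tested. Of the lists not described above, skeletal muscle had 4 higher and 0 lower of 30 tested genes, led by the fast muscle genes *mylpfa* (log2 fold change 7.61, adjusted p = 0.000473) and *tnnt3b* (log2 fold change 5.71, adjusted p = 0.00661), and the skeletal muscle list summed to 798 and 466 CPM in the mutant SV and 749.9 and 489 CPM in the WT BA. Against the WT SV, *mylpfa* was lower in the mutant SV, at 10.3 and 27.4 CPM against 232 and 108 CPM (log2 fold change -2.85, adjusted p = 0.0135). Epithelium and gill had 5 higher and 2 lower of 23, with the epithelial adhesion gene *epcam* at 32.8 and 9.63 CPM in the mutant SV and 0.19 and 0.104 CPM in the WT BA (log2 fold change 6.25, adjusted p = 0.00279) and the mucus cell gene *agr2* also higher (log2 fold change 3.1, adjusted p = 0.0132). The genes called lower were *krt4* and *ppl*. This list summed to less in the mutant SV, at 2696 and 4460 CPM against 5581 and 6955 CPM in the WT BA. The numbers were 2 higher and 0 lower of 15 for fibroblasts, 2 higher and 0 lower of 13 for lymphocytes, 2 higher and 0 lower of 12 for adipocytes, 1 higher and 0 lower of 12 for kidney, 1 higher and 2 lower of 15 for pigment cells and 2 higher and 2 lower of 18 for enterocytes. They were 0 higher and 2 lower of 17 for epicardium, 1 higher and 2 lower of 26 for cardiomyocytes and 0 higher and 2 lower of 15 for cartilage, where the genes called lower were *acana* and *sox9a*. The adipocyte list summed to less in the mutant SV, at 2325 and 2509 CPM against 4220 and 6258 CPM in the WT BA. The part of these cell types in the other results was not tested.

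Among all called genes with an established symbol and a mean of at least 10 CPM in the WT BA, the 10 with the largest decrease were *adarb1a*, *cntn2*, *pcolceb*, *cracr2b*, *itih1*, *cobl*, *cers3b*, *fzd8a*, *tmcc1a* and *sat1a.1*. *adarb1a* measured 206 and 236 CPM in the WT BA and 4.51 and 0.891 CPM in the mutant SV (log2 fold change -7.18, SE 0.66, adjusted p = 0.000736), and its product edits adenosines in RNA. *cntn2* measured 10.1 and 11.2 CPM in the WT BA and 0.0229 and 0.169 CPM in the mutant SV (log2 fold change -6.71, SE 1.01, adjusted p = 0.00535), and contactin 2 is a cell adhesion molecule best known from axons. *pcolceb* measured 16.5 and 9.42 CPM in the WT BA and 0.16 and 0.241 CPM in the mutant SV (log2 fold change -6.19, SE 0.73, adjusted p = 0.00202), and this gene encodes an enhancer of procollagen processing. The actin nucleator gene *cobl* (log2 fold change -5.09, adjusted p = 0.000736), the calcium channel regulator gene *cracr2b* (log2 fold change -5.44, adjusted p = 0.000473), the ceramide synthase gene *cers3b* (log2 fold change -4.84, adjusted p = 0.00671), *tmcc1a* (log2 fold change -4.78, adjusted p = 0.00687) and the polyamine acetyltransferase gene *sat1a.1* (log2 fold change -4.76, adjusted p = 0.00133) completed the 10, and each kept its call when any 1 of the 4 libraries was left out. Named for their counts, with no regard to gene length, were also *alkbh3*, which encodes a nucleic acid demethylase, at 3794 and 3640.5 CPM in the WT BA and 591 and 687 CPM in the mutant SV (log2 fold change -2.59, SE 0.44, adjusted p = 0.00702), the filamin gene *flna*, at 2292 and 3316 CPM in the WT BA and 1323 and 1271 CPM in the mutant SV (log2 fold change -1.31, adjusted p = 0.0472), and the annexin gene *anxa1a*, at 2258 and 2540.1 CPM in the WT BA and 455 and 814 CPM in the mutant SV (log2 fold change -1.8, adjusted p = 0.0125). The call of *alkbh3* held with any 1 of the 4 libraries left out. *flna* lost its call without any 1 of the 4 libraries (adjusted p from 0.0798 to 0.201). *anxa1a* lost its call without mutant SV replicate 1 (adjusted p = 0.0864).

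Few genes of general cell functions passed the test. Of 46 cell cycle genes and 85 nuclear genes of oxidative phosphorylation, 0 were called by edgeR, with medians of 0.27 and -0.08. The oxidative phosphorylation median was 0.02 with DESeq2 size factors, and the gene of smallest p was *ndufa4l2a* (log2 fold change 2.69, adjusted p = 0.054). Of 83 cytosolic ribosomal protein genes 1 was called lower, *rps8b* (log2 fold change -3.24, adjusted p = 0.015), a low copy whose reads may be split with its paralog, although 82 had a log2 fold change below 0 and 81 had both mutant SV libraries below both WT BA libraries, against 26.8% of all genes tested. Their median was -0.56, and -0.47 with DESeq2 size factors. Of 38 glycolysis genes 3 were called higher and 0 lower (7.89% against 7.32% of all genes tested), namely *pklr*, *ldhbb* and *tpi1a*. The liver pyruvate kinase gene *pklr* measured 17.8 and 1.76 CPM in replicates 1 and 2 of the mutant SV and 0 and 0.078 CPM in the WT BA. Of 37 immediate early genes 2 were called lower (5.41% against 7.32%), *nr4a2b* (log2 fold change -3.28, adjusted p = 0.00972) and the flow-responsive *klf2a*, at 67 and 164 CPM in the mutant SV and 453 and 413 CPM in the WT BA (log2 fold change -1.59, adjusted p = 0.0333). The replicates differed in this list, with a median log2 ratio of replicate 2 over replicate 1 of 1.59 in the mutant SV and -1.0 in the WT BA. Of 33 interferon response genes 0 were called (median 0.41), and *psmb8a* had the smallest p (log2 fold change 1.31, adjusted p = 0.0711). At an unadjusted p below 0.05 stood 0, 4 and 9 genes of the cell cycle, oxidative phosphorylation and interferon lists, DESeq2 called 0, 1 and 5 of these lists, and edgeR without WT BA replicate 2 called 4 cell cycle genes higher. The call of *nr4a2b* held with any 1 of the 4 libraries left out. *nr4a2b* then had a log2 fold change of -3.96 without mutant SV replicate 2 and -2.35 without WT BA replicate 2. *rps8b* lost its call without mutant SV replicate 1 (adjusted p = 0.0991). *pklr*, *ldhbb*, *tpi1a* and *klf2a* lost their calls without mutant SV replicate 1 or WT BA replicate 1 or 2 (adjusted p = 0.0566, 0.127 and 0.0532 for *pklr*, and 0.196, 0.113 and 0.0933 for *ldhbb*, and 0.0876, 0.0824 and 0.116 for *tpi1a*, and 0.143, 0.0841 and 0.0556 for *klf2a*).

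The genes that differed most between replicates of a tissue, at a mean of at least 50 CPM, are given as a description. In the mutant SV these were *tg*, *c3a.3*, *serpina1l*, *cfhl4* and *serpina7*, the last 4 of them genes of complement and plasma proteins. *c3a.3*, a complement C3 gene, measured 148 and 1.06 CPM in replicates 1 and 2, and *serpina1l* 987 and 10.4 CPM. In the WT BA they were *nppc*, *il11a*, *cxcl8a*, *fosl1a* and *ddit4*. The natriuretic peptide gene *nppc* measured 561 and 8.79 CPM in replicates 1 and 2 of the WT BA, the cytokine gene *il11a* 236 and 5.05 CPM, the chemokine gene *cxcl8a* 269 and 7.26 CPM and the AP-1 gene *fosl1a* 262 and 7.67 CPM, all higher in replicate 1, while the stress gene *ddit4* measured 5.17 and 99.8 CPM. None of these 5 was called between the tissues (adjusted p from 0.122 to 0.759).

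**Figure D5:**
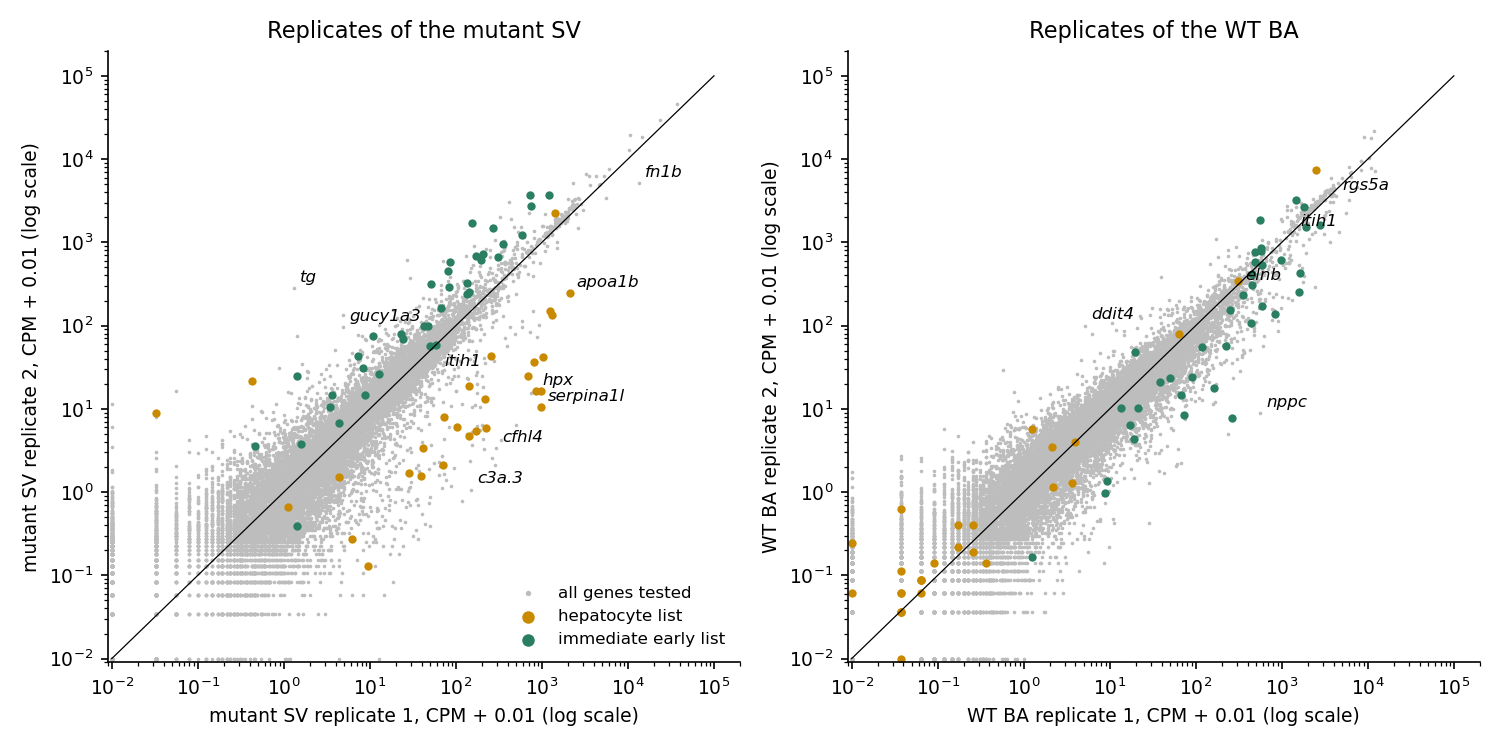
CPM plus 0.01 of replicate 2 (y axis) against replicate 1 (x axis), both on log scales, of the 19145 genes tested in the mutant SV (left) and in the WT BA (right), with the line of equality. Hepatocyte genes (orange) lie mostly below the line in the mutant SV, as *hpx* at 848 and 16.3 CPM, and immediate early genes (green) lie mostly above it there and more often below it in the WT BA.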

How the data were processed

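RNA of pooled adult zebrafish hearts was sequenced in 12 libraries, 2 for each of 6 groups. Per the labels and the study's methods, the authors used cutadapt for trimming and STAR for alignment (danRer11 is named, beside GRCz10 and danRer10), and counted uniquely aligned reads per gene, all as single-end, with featureCounts of Subread, which counted a read for every gene it overlapped. The deposited table holds raw counts of 22158 gene names, of which 13 had become dates, and FPKM values that the authors scaled with DESeq2. The authors' group means and their log2 fold changes, p-values and false discovery rates for pairs of groups were not used.

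Counts were tested with edgeR 4.0.16 in R 4.3.3 (quasi-likelihood test, TMM scaling, filterByExpr, Benjamini-Hochberg adjustment over 19145 genes). All 12 libraries entered a model of 6 groups with 1 RUVs factor, which was estimated from differences between replicates. Its values also differed between the tissues, at 2.07 and -0.479 in the mutant SV and -0.308 and 0.109 in the WT BA. The log2 fold changes are adjusted for this factor and can depart from the ratios of mean CPM. The SE given is the size of the log2 fold change divided by the square root of the F statistic of its test. It is not a standard error estimated by the fit. Here a gene is called at an adjusted p below 0.05. The alternatives, 15 in all, included DESeq2 1.42.0, and limma 3.58.1 was loaded with edgeR. CPM values were scaled by TMM. The procedure was also run on simulated counts with 200 changed genes. These held no other difference among the groups and no unwanted factor, so they cannot judge the fit of these data. The smooth muscle, matrix and other lists (23) and the cell type lists (19), as well as the genes compared, were chosen with earlier results of these data known. Of the list genes 1010 matched by symbol, 40 by synonym and 139 were not found.

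Named genes were the 10 largest called changes per direction without overlap, at a mean of at least 10 CPM and with an established symbol, the 5 most abundant per direction, in each list the largest called change per direction and the smallest p, genes that the study names, and the 5 largest replicate ratios per tissue at 50 CPM or more. Others were named after their values were seen, among them most further list members. Intervals and floors cover counting error only. No batch was given per library.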

Additional observations from a re-analysis of the deposited data

How the results depend on the processing

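With the tests named in the methods, 1401 genes were called, 669 higher and 732 lower. DESeq2 in place of edgeR called 2572 (1341 higher, 1231 lower), a test against a minimum fold of 2 called 477 (269 and 208), and the mutant SV and WT BA alone, without a factor, gave 0 (0 and 0), with 3465 genes at an unadjusted p below 0.05. Leaving out 1 of the 4 libraries gave 660 to 1625 genes, 289 to 691 higher and 215 to 934 lower, from fits that tested more genes because the filter then rests on a group of 1 library, and that assume the lone library varies like the other groups. The lowest number of lower genes came without mutant SV replicate 1 and the lowest number of higher genes without WT BA replicate 1. Without mutant SV replicate 2, 507 were higher and 461 lower. No RUVs factor, 2 factors, other filters, DESeq2 size factors and removal of mitochondrially encoded genes kept the counts within 1.5 times, from 1061 to 1807.

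The replicate numbers of the titles are shared between groups, but nothing ties equal numbers to the same fish or day. Across all genes, same-numbered libraries of the 2 tissues did not deviate together (r = -0.065, from 2 pairs). Single lists went either way. The median log2 ratio of replicate 2 over replicate 1 was -1.8 in the mutant SV and -1.81 in the WT BA for cardiomyocyte genes. For immediate early genes it was 1.59 in the mutant SV and -1.0 in the WT BA. With a replicate block in place of the factor 493 genes were called (228 higher, 265 lower), all of them among the 1401, and with a replicate block beside the factor 719 (344 and 375).

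For the 349 genes examined singly, an alternative left the call as it was in 4086 cases, ended a call in 1040 and added one in 61. In 3 cases the direction turned for a gene called in either fit. Turns of direction in genes called in neither fit were counted among the 4086. The log2 fold change of *ddit4* was 2.6 (adjusted p = 0.0207) without WT BA replicate 2 and -1.39 (adjusted p = 0.15) without WT BA replicate 1, against -0.49 with all libraries, and that of *il11a* was 2.37 (adjusted p = 0.0402) without WT BA replicate 1 and -3.16 (adjusted p = 0.00594) without WT BA replicate 2, against -2.12. Both differ strongly between the WT BA replicates. That of *hbae1.3* was 0.54 (adjusted p = 0.907) with the replicate block in place of the factor, against -3.71, and the cause was not tested. With 2 pools per tissue, low genes and those with discordant replicates limit what can be called.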

Other observations

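Several genes that attach cells to their matrix were also lower in the mutant SV. This list and the 2 that follow were drawn up after values were seen, so their counts are a description. Of 38 tested genes of cell-matrix adhesion, 16 were called lower and 0 higher in the mutant SV, against 3.82% and 3.49% of all genes tested, and the median log2 fold change was -1.3. The integrin gene *itga9* measured 117 and 62.5 CPM in the WT BA and 15.2 and 15.8 CPM in the mutant SV (log2 fold change -2.66, adjusted p = 0.00774). The focal adhesion adaptor genes *nedd9*, at 96.2 and 77.3 CPM in the WT BA and 12 and 14.4 CPM in the mutant SV (log2 fold change -2.57, adjusted p = 0.00535), and *tns2a*, at 261 and 162 CPM in the WT BA and 36.2 and 52.3 CPM in the mutant SV (log2 fold change -2.17, adjusted p = 0.00872), were lower in the same way. The libraries of the tissues did not overlap in these 3 genes, and their calls held with any 1 of the 4 libraries left out. Talin 1 links integrins to actin, and *tln1* measured 427 and 557 CPM in the WT BA and 158 and 184 CPM in the mutant SV (log2 fold change -1.59, adjusted p = 0.0183). The count of lower genes in this list was 4 without mutant SV replicate 1, 11 without mutant SV replicate 2, 7 without WT BA replicate 1, 13 without WT BA replicate 2. *tln1* lost its call without mutant SV replicate 1 or WT BA replicate 2 (adjusted p = 0.105 and 0.0558).

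Several enzymes that build the chondroitin sulfate chains of aggrecan and versican were lower as well. Of 24 tested genes 5 were called lower and 0 higher (20.8% against 7.32%, median log2 fold change -0.95). The genes of these enzymes called lower numbered 2 without mutant SV replicate 1. The chondroitin synthase gene *chsy1* measured 21.6 and 23.3 CPM in the WT BA and 4.4 and 3.92 CPM in the mutant SV (log2 fold change -2.56, SE 0.34, adjusted p = 0.00285), and its call held with any 1 of the 4 libraries left out. *chpfa* (log2 fold change -3.6, adjusted p = 0.00385), *csgalnact1a* (log2 fold change -2.36, adjusted p = 0.0121), *chst15* (log2 fold change -1.67, adjusted p = 0.0332) and *papss2b* (log2 fold change -1.69, adjusted p = 0.0194), the last for the sulfate donor, were the others. *chpfa* lost its call without mutant SV replicate 2 (adjusted p = 0.0567). *csgalnact1a* lost its call without mutant SV replicate 1 (adjusted p = 0.0786). *chst15* lost its call without mutant SV replicate 1 or WT BA replicate 2 (adjusted p = 0.191 and 0.113). *papss2b* lost its call without mutant SV replicate 1 or WT BA replicate 1 (adjusted p = 0.108 and 0.0849).

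Of 6 tested genes of the LIM-only FHL family, whose products act as cofactors in muscle cells, 3 were called lower and 0 higher (against 3.82% and 3.49% of all genes tested). The FHL genes called lower numbered 1 without mutant SV replicate 1 or WT BA replicate 1. *fhl3b* measured 246 and 356 CPM in the WT BA and 13.3 and 22.3 CPM in the mutant SV (log2 fold change -4.01, SE 0.42, adjusted p = 0.00133) and 5.47 and 4.26 CPM in the WT SV, and its call held with any 1 of the 4 libraries left out. *fhl1b* (log2 fold change -1.56, adjusted p = 0.0362) and *fhl2a* (log2 fold change -1.42, adjusted p = 0.0372) were the others. *fhl1b* lost its call without any 1 of the 4 libraries (adjusted p from 0.0673 to 0.143). *fhl2a* lost its call without mutant SV replicate 1 or WT BA replicate 1 or 2 (adjusted p = 0.247, 0.106 and 0.0511).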
